A study of Mus musculus with 2 samples.

Results

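The AP-1 transcription factors were followed through the single-cell RNA-Seq of shYT tumor-bearing livers, with and without anti–PD-1. The 10 members, *Fos*, *Fosb*, *Fosl1*, *Fosl2*, *Jun*, *Junb*, *Jund*, *Atf3*, *Batf* and *Batf3*, were taken by symbol from the 32589 genes counted in each library. They were chosen because their levels differed between these libraries, so the differences below describe what selected them, and no test was made. The 2 libraries came from livers bearing Notch- and AKT-driven cholangiocarcinoma (CCA), made by injecting plasmids for an intracellular Notch domain (NICD) and a membrane-bound AKT into the tail vein, which carries them to the liver (N-AKT). Both groups were shYT, meaning that shRNAs to *Yap1* and to *Wwtr1*, which encodes TAZ, were induced with doxycycline from day 25 onward. One group then received PBS, and its library is titled as the control. The other received an anti–PD-1 antibody, which blocks an inhibitory receptor of T cells, on days 26, 29 and 32. Both were analyzed on day 33. The transactivator that drives the shRNAs is expressed ubiquitously, so host immune and stromal cells were also shYT, and no library without YAP/TAZ depletion entered the comparison. The labels give neither the sex nor the number of animals of a library, nor which of the study's 2 shYT mouse lines it came from. The study's methods state that mice of both sexes were used, and its T cell maps of this experiment carry an n of 4 for each group. One library of each group is analyzed here, and whether it pools those animals is not stated.

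AP-1 is a family of dimers of basic leucine zipper proteins. Jun proteins pair with each other or with Fos proteins, while Fos proteins need a Jun partner to bind DNA, and ATF and BATF proteins join through the same zipper. The classical binding site reads TGANTCA, and dimers with ATF or CREB proteins favor the related TGACNTCA. Several members are immediate early genes, whose transcription starts within minutes of a stimulus such as a growth factor, antigen receptor ligation, cytokines or stress, without new protein synthesis. In T cells AP-1 works with NFAT at cytokine genes, and in macrophages and neutrophils it takes part in inflammatory gene expression. Warm enzymatic digestion of tissue, which both libraries went through, is also known to start immediate early transcription.

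For *Fos*, *Fosb*, *Junb*, *Atf3* and *Jun*, which differed widely between the libraries, the text below gives the 120 bases before the transcription start, because the first 4 hold a core letter run of the CREB/ATF site there (TGACG, capitals, printed as CGTCA where it lies on the other strand), and *Jun* holds the longer TGACNTCA as TGACATCA (capitals). Sequences are from RefSeq on GRCm38.p6, read 5′ to 3′ on the strand of the gene.
Fos: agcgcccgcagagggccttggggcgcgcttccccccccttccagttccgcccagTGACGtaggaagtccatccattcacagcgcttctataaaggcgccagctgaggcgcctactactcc
Fosb: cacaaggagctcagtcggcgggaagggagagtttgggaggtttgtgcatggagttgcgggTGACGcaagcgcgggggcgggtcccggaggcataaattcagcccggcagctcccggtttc
Junb: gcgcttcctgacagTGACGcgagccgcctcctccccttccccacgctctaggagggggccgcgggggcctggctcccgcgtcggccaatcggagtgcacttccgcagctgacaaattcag
Atf3: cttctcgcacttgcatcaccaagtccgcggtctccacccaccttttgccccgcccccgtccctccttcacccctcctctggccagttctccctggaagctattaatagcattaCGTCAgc
Jun: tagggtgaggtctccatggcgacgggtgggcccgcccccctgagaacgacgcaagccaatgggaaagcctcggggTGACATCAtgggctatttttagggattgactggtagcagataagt
These lie at chr12:85473770-85473889 (forward strand) for *Fos*, chr7:19310046-19310165 (reverse) for *Fosb*, chr8:84978749-84978868 (reverse) for *Junb*, chr1:191183334-191183453 (reverse) for *Atf3* and chr4:95052223-95052342 (reverse) for *Jun*. The *Atf3* stretch ends at the start of a RefSeq transcript that begins inside the longer gene of the GENCODE annotation. Counted back from the start, the capitals begin at −66 in *Fos*, −60 in *Fosb*, −106 in *Junb*, −7 in *Atf3* and −45 in *Jun*. The *Fos* promoter holds TGACG again at −129, beyond the printed stretch, and a TATAAA at −33. Promoters were found for 9 of the 10 members and searched over 250 bases on both strands. TGACG was present in 17.8% of 32851 promoters, TGACNTCA in 7.49%, TGANTCA in 6.75%, TATAAA in 12.4% and a CArG box, the site of serum response factor, in 1.47%. Among the members, *Batf* also held TGACG, at −98, and *Fosl2*, *Jund* and *Batf3* held none of the searched motifs, in RefSeq windows that end inside the GENCODE gene for *Fosl2* and *Batf3* and before its start for *Jund*. TGACG can lie within TGACNTCA when the open letter is G, so these matches are not independent, and a match describes letters, not binding.

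The genes themselves are spread over 7 chromosomes in the GENCODE annotation of GRCm38. *Fos* (ENSMUSG00000021250, chr12:85473890-85477273, forward strand) and *Batf* (ENSMUSG00000034266, chr12:85686669-85709087, forward strand) share chromosome 12, *Junb* (ENSMUSG00000052837, chr8:84974484-84978718, reverse strand) and *Jund* (ENSMUSG00000071076, chr8:70698949-70700616, forward strand) share chromosome 8, and *Atf3* (ENSMUSG00000026628, chr1:191170296-191218039, reverse strand) and *Batf3* (ENSMUSG00000026630, chr1:191097847-191108945, forward strand) share chromosome 1. The other members are *Fosb* (ENSMUSG00000003545, chr7:19302696-19310051, reverse strand), *Fosl1* (ENSMUSG00000024912, chr19:5447547-5455946, forward strand), *Fosl2* (ENSMUSG00000029135, chr5:32135801-32157842, forward strand) and *Jun* (ENSMUSG00000052684, chr4:95049034-95052222, reverse strand).

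The PBS library held 19397 barcodes and the anti–PD-1 library 19451, with 121713441 and 100807037 UMIs (unique molecular identifiers, which count transcripts). Of these, 15531 and 16360 cells were used, those with 500 to 5000 genes detected and a mitochondrial share of up to 10%, with a median of 3159 and 2990 UMIs. Marker genes placed 11372 (73.2%) and 11394 (69.6%) of them in a class, and 219 barcodes occurred in both libraries. *Xist*, which is expressed from the inactive X chromosome, had 18452 UMIs with PBS against 11 with anti–PD-1, while 4 Y-linked genes had 3113 and 15323, so the sex of the sampled cells differed with the treatment and cannot be told apart from it. Of the cells used, 1481 with PBS and 7861 with anti–PD-1 had Y-linked and no *Xist* UMIs. Among these, 47 of the 54 member-by-class values described below as 2-fold higher remained so, and 5 others became so. Of all 110 such values, 41 differed little there and 69 differed more, the most of the 12 alternatives described below. The share of all genes 2-fold higher was not computed for this subset, so nothing is read from the 47 against a background.

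UMIs were summed per library and class for 11 classes with at least 100 cells in both libraries, and expressed as CPM (the gene's share of that class's UMIs, scaled as parts per 1e+06). Class names mean cells that carry the markers of that type. None had a gene of another class's fixed marker list among its 10 leading genes, and the number of its own markers there ran from 1 to 6. The macrophage class had only *Ms4a7*, beside macrophage genes such as *Trem2* and *Gpnmb*. The monocyte class was also led by *Elane*, *Mpo*, *Prtn3* and *Ctsg*, granule protein genes known from granulocyte and monocyte precursors, beside *Chil3*, *Vcan*, *Ly6c2* and *Plac8*. The log2 ratio compares anti–PD-1 with PBS once 5 CPM has been added to each level, a step that pulls the ratio of a low gene toward 0, and the 95% intervals in parentheses cover counting error only. With 1 library per group, the spread between animals is unknown and no difference was tested against it. A difference in a sum can come from the number of cells expressing a gene as well as from the amount per cell. The shares of cells given further on do not separate the 2. A UMI is also found in more cells when the amount per cell is higher.

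Across the 11 classes, 54 of the 110 member-by-class values lay at a log2 ratio of at least 1 and 1 lay at −1 or below. Of all genes with at least 50 UMIs in a class, 1.65% (B cells) to 4.00% (monocytes) were 2-fold higher. In neutrophils, the class of the 1 lower value, 4.65% were 2-fold lower. The members were chosen on this contrast, so nothing is read from their counts against these shares. Of the 54, 2 rested on fewer than 50 UMIs over both libraries, as did 17 of all 110. The interval of the ratio lay above 0 for 85 values, below 0 for 7 and held 0 for 18. *Fosb*, *Fosl2*, *Junb*, *Jund* and *Atf3* were higher with anti–PD-1 in all 11 classes, whereas *Jun* went in opposite directions in different classes. These directions held under both other scalings of the UMI totals, except that *Jun* in NK cells went from −0.02 to 0.13 under median-ratio scaling.

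**Figure D1:**
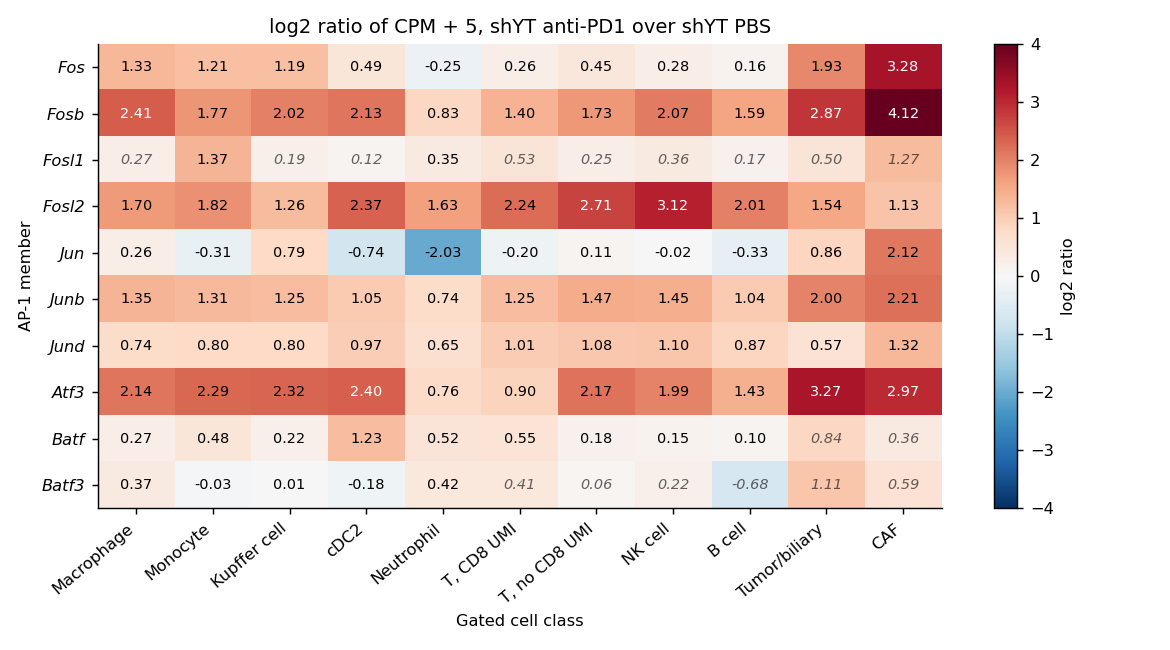
Log2 ratio of CPM, anti–PD-1 over PBS, for each member (rows) in each gated class (columns), with red for higher and blue for lower with anti–PD-1. Pale italic numbers mark values with fewer than 50 UMIs over both libraries. *Fosl2* is at least 1.13 in every class, while *Jun* runs from −2.03 in neutrophils to 2.12 in CAFs.

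*Jun*, the partner that every Fos protein can use, gave the widest spread of directions. In neutrophils its level was 1370.0 CPM in PBS and 333 CPM with anti–PD-1, from 2888 and 2244 UMIs, a log2 ratio of −2.03 (−2.11 to −1.95). In CAFs (cancer-associated fibroblasts) it was 264 and 1162 CPM, from 574 and 1171 UMIs, a log2 ratio of 2.12 (1.97 to 2.26). Neutrophils thus had the highest *Jun* level of the 11 classes in the PBS library, and CAFs the lowest. Tumor and biliary epithelial cells, gated together, had 589 and 1070.3 CPM of *Jun*, a log2 ratio of 0.86 (0.78 to 0.94). Kupffer cells, the resident macrophages of the liver, had 1000.1 and 1731 CPM, with a ratio of 0.79 (0.75 to 0.83). These 2 classes were higher with anti–PD-1 but did not reach 2-fold over all gated cells. Tumor and biliary cells with Y-linked and no *Xist* UMIs (43 in PBS and 195 with anti–PD-1) had a *Jun* ratio of 1.03. Lower values were found in cDC2 (type 2 conventional dendritic cells), with 652 and 389 CPM and a ratio of −0.74 (−0.90 to −0.58), and in monocytes, with 852 and 688 CPM and a ratio of −0.31 (−0.38 to −0.23). Among cells with Y-linked and no *Xist* UMIs, *Jun* was also 2-fold lower in both, at −1.17 in cDC2 and −1.14 in monocytes (36 PBS and 303 anti–PD-1 cells), and in cDC2 it was −1.23 when the gate asked for 1 more marker. No lymphocyte class reached 2-fold in either direction. The *Jun* ratio was −0.02 (−0.16 to 0.11) in NK cells (0.13 under median-ratio scaling), 0.11 (0.02 to 0.21) in T cells lacking a CD8 UMI, −0.20 (−0.32 to −0.07) in T cells with one and −0.33 (−0.45 to −0.20) in B cells. The CD8-gated value sums clusters of opposite direction, −0.42 in cluster 0 and 0.71 in cluster 6.

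*Junb*, which is strongly induced in activated lymphocytes and myeloid cells and forms weaker activators than *Jun*, was higher with anti–PD-1 throughout and 2-fold higher in 10 of the 11 classes. In NK cells it was 1316 CPM in PBS and 3594 CPM with anti–PD-1, a log2 ratio of 1.45 (1.38 to 1.52). T cells lacking a CD8 UMI had 1107 and 3075 CPM, a ratio of 1.47 (1.43 to 1.51), and CD8-gated T cells had 963 and 2293 CPM, a ratio of 1.25 (1.19 to 1.31). Over all gated cells the ratio was larger in the cells of the tumor and its stroma. It was 2.21 (2.07 to 2.35) in CAFs, where *Junb* measured 273 and 1283 CPM, and 2.00 (1.89 to 2.10) in tumor and biliary cells, with 218 and 883 CPM. Neutrophils had the highest level in both libraries and the smallest ratio, with 2319.8 and 3889 CPM and 0.74 (0.70 to 0.79). Neutrophils therefore combined lower *Jun* with higher *Junb*. The ratios of the other classes lay between 1.04 in B cells and 1.35 in macrophages. *Junb* stayed 2-fold higher under all 12 alternatives in 6 classes. Among cells with Y-linked and no *Xist* UMIs its ratio was 0.61 in monocytes, 0.48 in cDC2, 0.63 in B cells and 0.98 in CD8-gated T cells. There it was 1.71 in CAFs and 1.74 in NK cells, and 0.52 in neutrophils, above cDC2. The order of these classes thus depended on the cells used.

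*Jund*, the Jun gene known for steady expression in resting cells, had the narrowest range of ratios among the members that were well counted in every class. Its lowest ratio was 0.57 (0.47 to 0.67), in tumor and biliary cells with 397 and 594 CPM. The highest was 1.32 (1.17 to 1.47), in CAFs with 287 and 725 CPM. NK cells had 695 and 1491 CPM, the highest anti–PD-1 level of the 11 classes. *Jund* was 2-fold higher in 4 classes, namely CAFs, NK cells and both T cell classes. Both T cell classes stood close to the threshold, at 1.01 in CD8-gated T cells and 1.08 in the other T cells, and cDC2 fell just outside it at 0.97.

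**Figure D2:**
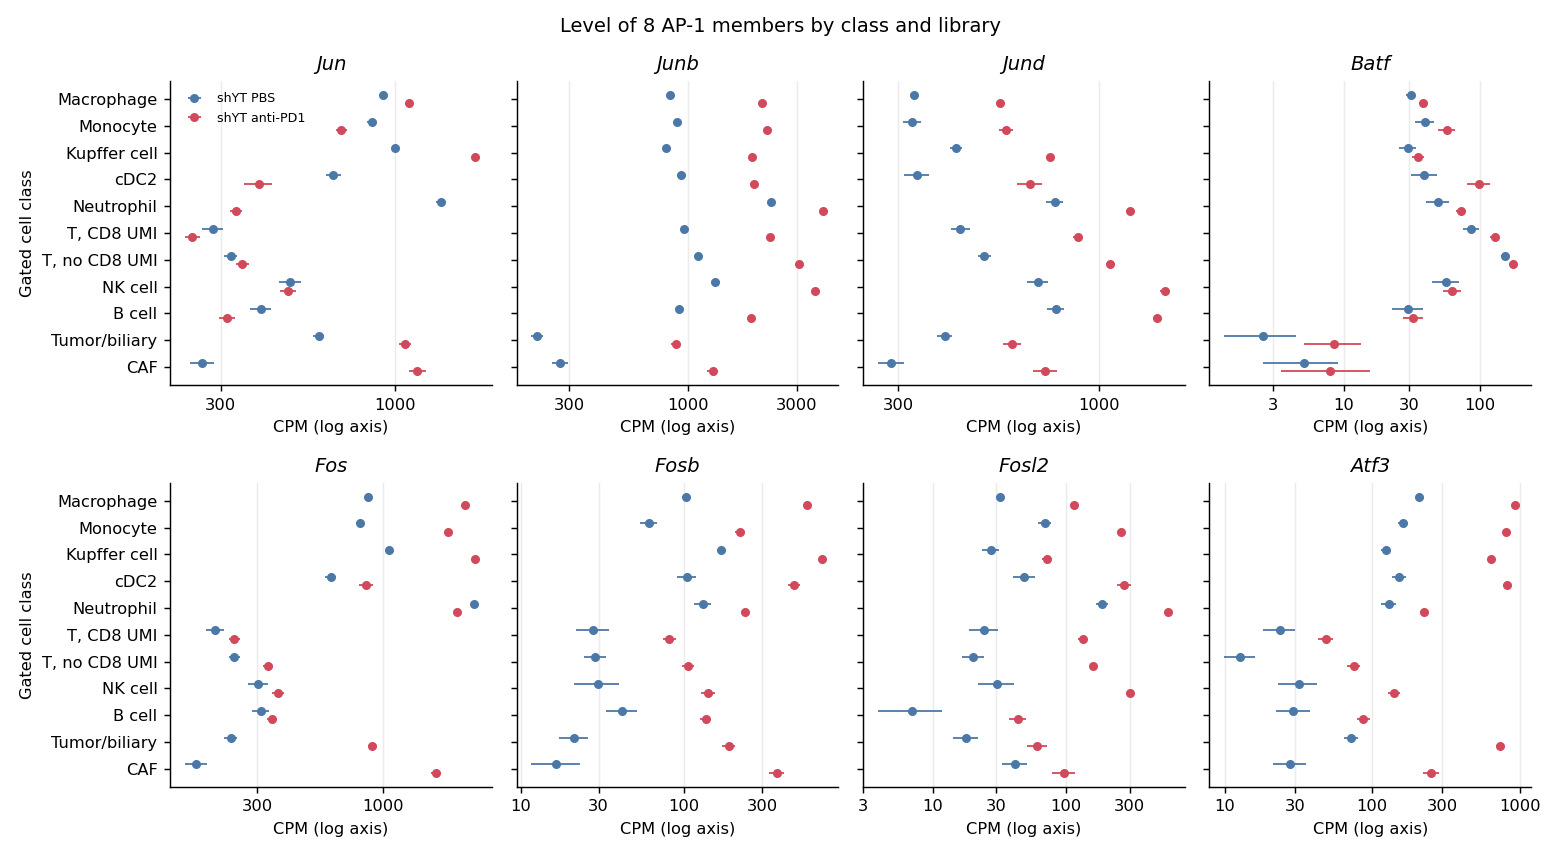
Level of 8 members in CPM (log axis, a different range in each panel) by gated class (rows), blue for shYT PBS and red for shYT anti–PD-1. Bars are exact Poisson 95% intervals, which cover counting error only. *Jun* changes sides between rows, *Fos* has the red point to the left in neutrophils, which depends on the scaling, and *Junb*, *Jund*, *Fosb*, *Fosl2* and *Atf3* have the red point to the right in every row.

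*Fos*, the prototype immediate early gene of the family, was higher in 10 classes and 2-fold higher in 5. In CAFs it was 166 CPM in PBS and 1666 CPM with anti–PD-1, from 362 and 1678 UMIs, a log2 ratio of 3.28 (3.12 to 3.45). Tumor and biliary cells had 233 and 904 CPM, a ratio of 1.93 (1.83 to 2.04). The mononuclear phagocytes followed. Macrophages had 871 and 2194 CPM with a ratio of 1.33 (1.30 to 1.35), monocytes 802 and 1868 CPM with 1.21 (1.16 to 1.27), and Kupffer cells 1057 and 2425 CPM with 1.19 (1.16 to 1.23). Lymphocytes had ratios between 0.16 in B cells and 0.45 in T cells lacking a CD8 UMI, and cDC2 had 0.49. Neutrophils were the exception. Their *Fos* was 2411 CPM in PBS, the highest PBS level of the 11 classes, and 2031 CPM with anti–PD-1, a ratio of −0.25 (−0.29 to −0.20) that turned to 0.12 under median-ratio scaling. Among cells with Y-linked and no *Xist* UMIs the *Fos* ratio was −0.95 in CD8-gated T cells (54 PBS and 615 anti–PD-1 cells), −0.16 in B cells, −0.05 in NK cells and 0.45 in monocytes (36 and 303 cells), so its direction depended on the cells used in 3 of the 10 classes, and 2-fold was not reached in monocytes.

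*Fosb*, whose product resembles that of *Fos* and is induced by the same stimuli, was 2-fold higher in 10 classes. CAFs had 16.6 CPM in PBS and 369 CPM with anti–PD-1, from 36 and 372 UMIs. Their log2 ratio of 4.12 (3.72 to 4.52) was the highest of any member in the 11 classes over all gated cells. It was 3.21 and 5.06 within the 2 clusters that held most CAFs. In tumor and biliary cells *Fosb* was 21.2 and 187 CPM, a ratio of 2.87 (2.60 to 3.15). In macrophages it was 103 and 569 CPM, a ratio of 2.41 (2.35 to 2.47). Kupffer cells had the highest level in both libraries, at 169 and 700.5 CPM. CD8-gated T cells had 27.6 and 81.2 CPM, a ratio of 1.40 (1.10 to 1.72) that was 0.77 among cells with Y-linked and no *Xist* UMIs. Neutrophils had 131 and 236 CPM, a ratio of 0.83 (0.65 to 1.01), the class under 2-fold here. That ratio was 1.18 under median-ratio scaling. It was 0.02 among cells with Y-linked and no *Xist* UMIs (77 in PBS and 1062 with anti–PD-1).

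*Fosl2* encodes FRA-2, a Fos protein that appears later after stimulation than *Fos* and lacks its activation domain, and was 2-fold higher in all 11 classes, in CAFs under 9 of 12 alternatives. Over all gated cells its ratios were largest in NK cells and T cells lacking a CD8 UMI. NK cells had 30.3 CPM in PBS and 302 CPM with anti–PD-1, from 43 and 846 UMIs, a log2 ratio of 3.12 (2.73 to 3.52). T cells lacking a CD8 UMI had 20.05 and 159 CPM, a ratio of 2.71 (2.47 to 2.95). CD8-gated T cells had 24.3 and 133 CPM, and B cells, with few UMIs in PBS, had 7.03 and 43.6 CPM from 14 and 184 UMIs. Neutrophils had the highest level of the 11 classes in both libraries, at 186 and 586 CPM, a ratio of 1.63 (1.48 to 1.78). The order of the *Fosl2* ratios over all gated cells thus differed from that of *Fos*, with NK cells at the top and CAFs at the bottom. In CAFs the ratio was 1.13 (0.73 to 1.52) and fell to 0.63 when cells were thinned to 1000 UMIs. Among cells with Y-linked and no *Xist* UMIs, CAFs (29 in PBS and 89 with anti–PD-1) had 1.92, above neutrophils at 1.33 and monocytes at 1.15. There NK cells had 3.58, B cells 3.28, CD8-gated T cells 2.78 and other T cells 2.43, so the order depended on the cells used. *Fosl1*, the gene of FRA-1, was hardly counted, with 45 and 223 UMIs over all kept cells. In 4 classes, Kupffer cells, both T cell classes and NK cells, it had 0 UMIs in PBS, which allows up to 1.10 CPM in CD8-gated T cells, where 13 UMIs (2.21 CPM) were counted with anti–PD-1. It passed 2-fold in monocytes, with 9 and 50 UMIs and a ratio of 1.37 (0.91 to 1.76), and in CAFs, with 8 and 16 UMIs.

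*Atf3* encodes a stress-induced factor that pairs with Jun proteins and can repress as well as activate. It was 2-fold higher in 9 classes. Tumor and biliary cells had 71.6 CPM in PBS and 732 CPM with anti–PD-1, from 337 and 1637 UMIs, a log2 ratio of 3.27 (3.11 to 3.43). CAFs had 27.6 and 250.2 CPM, a ratio of 2.97 (2.61 to 3.34). Over the alternatives the CAF ratio ran from 2.54 to 4.55, the latter among the 29 PBS and 89 anti–PD-1 cells with Y-linked and no *Xist* UMIs. Macrophages had the highest level of the 11 classes in both libraries, 209 and 939 CPM, a ratio of 2.14 (2.09 to 2.18). Over all gated cells, the tumor, its stroma and the mononuclear phagocytes were thus all above a ratio of 2. Among cells with Y-linked and no *Xist* UMIs, *Atf3* was under 2 in macrophages (1.86), monocytes (1.58) and cDC2 (1.52), and 2.68 in Kupffer cells. T cells lacking a CD8 UMI had a ratio of 2.17 (1.89 to 2.46), which ran from 1.82 to 2.47 over the alternatives. CD8-gated T cells had 23.5 and 48.2 CPM and a ratio of 0.90 (0.56 to 1.24), which ran from 0.61 to 3.47, the latter among the 54 PBS and 615 anti–PD-1 cells with Y-linked and no *Xist* UMIs, and passed 2-fold under 5 of 12 alternatives, so no order between the T cell classes was read. Neutrophils had the lowest ratio over all gated cells, 0.76 (0.58 to 0.95), which was 1.12 under median-ratio scaling. Its interval overlapped that of CD8-gated T cells, so no order between these classes was read either.

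*Batf* and *Batf3* encode small factors that hold a zipper but no activation domain and act with Jun and IRF proteins, *Batf* in effector T cells and *Batf3* in the development of cDC1 (type 1 conventional dendritic cells). Each passed 2-fold in 1 class only. *Batf* was highest in T cells lacking a CD8 UMI, at 152 CPM in PBS and 173 CPM with anti–PD-1, a log2 ratio of 0.18 (0.05 to 0.32). CD8-gated T cells had 85.7 and 128 CPM, a ratio of 0.55 (0.35 to 0.75). The class past 2-fold was cDC2, with 38.6 and 97.1 CPM from 84 and 105 UMIs, a ratio of 1.23 (0.84 to 1.62). *Batf3* was counted mainly in cDC2, Kupffer cells and macrophages among the 11 classes. It was 84.5 and 74.0 CPM in cDC2, 82.0 and 82.7 in Kupffer cells and 39.1 and 51.9 in macrophages. Its one value past 2-fold, in tumor and biliary cells, came from 6 and 19 UMIs. Dendritic cells of 2 smaller classes had more of it. In cDC1 (110 and 80 cells), which need *Batf3*, it was 181 and 169.6 CPM, a ratio of −0.09 (−0.41 to 0.23). In mature dendritic cells it was 199 and 195 CPM. In these small classes other members did differ, as in cDC1, where *Fosb* had a ratio of 2.08 (1.69 to 2.49) and *Jun* of −0.63 (−0.87 to −0.39), and in endothelial cells (483 and 94 cells), where *Jun* had 1.77 (1.63 to 1.91).

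By class, the members 2-fold higher out of 10 stand beside the share of all genes with at least 50 UMIs that were, in percent. CAFs had 8 (all genes 3.59%), with a median log2 ratio over the 10 members of 1.72. Tumor and biliary cells had 6 (3.59%), with a median of 1.32, and monocytes 6 (4.00%), with a median of 1.26. Macrophages had 5 (3.01%), Kupffer cells 5 (1.67%) and cDC2 5 (3.03%), with medians of 1.03, 1.00 and 1.01. Among lymphocytes, NK cells had 5 (2.44%), T cells lacking a CD8 UMI 5 (1.71%), CD8-gated T cells 4 (1.90%) and B cells 4 (1.65%), with medians of 0.73, 0.77, 0.72 and 0.52. Over the 8 or 9 members with at least 50 UMIs, the medians were 1.27 in NK cells, 1.28 in T cells lacking a CD8 UMI, 0.95 in CD8-gated T cells, 0.96 in B cells and 1.33 in macrophages. By the same rule they were 1.19 in Kupffer cells and 1.05 in cDC2. Over 7 such members each, they were 1.93 in tumor and biliary cells and 2.21 in CAFs, with 5 and 7 of these members 2-fold higher. The counts out of 10 also take in members under 50 UMIs, which the shares of all genes leave out. Neutrophils had 1 member higher (2.70%), namely *Fosl2*, 1 lower (4.65%), namely *Jun*, and a median of 0.59. Median-ratio scaling, which moved all neutrophil ratios up by 0.36, gave 5 members and 4.72% of all genes 2-fold higher there. The members were chosen on this contrast, so nothing is read from these counts against the background. The values nearest the threshold were *Jund* in cDC2 (0.97) and *Atf3* in CD8-gated T cells (0.90) below it, and *Jund* in CD8-gated T cells (1.01) and *Junb* in B cells (1.04) above it.

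The summed level of the 10 members was higher with anti–PD-1 in every class, by 5.13-fold in CAFs, 2.87-fold in tumor and biliary cells, 2.28-fold in macrophages, 1.98-fold in CD8-gated T cells and 1.17-fold in neutrophils. Neutrophils started from the highest sum, 7374 CPM, and reached 8595 CPM, while CAFs started from the lowest, 1087 CPM, and reached 5581 CPM. The makeup of the sum differed too. The share of *Jun* among member UMIs was lower with anti–PD-1 in all 11 classes, at 18.6% and 3.87% in neutrophils, 27.3% and 14.3% in macrophages, 38.0% and 24.0% in tumor and biliary cells and 24.3% and 20.8% in CAFs. *Junb* took a larger share with anti–PD-1 in 10 classes, for example 31.5% and 45.2% in neutrophils and 44.6% and 54.6% in NK cells, with CAFs the exception at 25.1% and 23.0%. In CAFs the shares of *Fos* (15.3% and 29.8%), *Fosb* (1.52% and 6.62%) and *Atf3* (2.54% and 4.48%) were larger. A share can be lower because the other members are higher, as in CAFs, where the *Jun* level itself was higher.

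**Figure D3:**
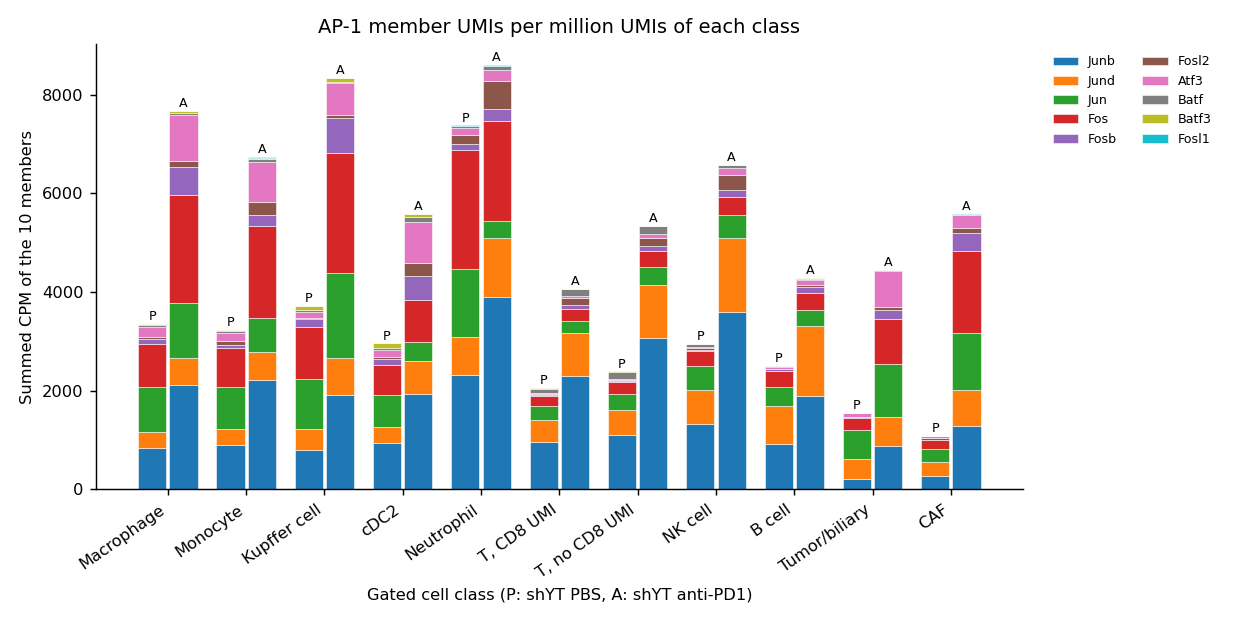
Level of the 10 members in CPM, stacked (vertical axis), for each gated class (horizontal axis), with the PBS bar on the left and the anti–PD-1 bar on the right of each pair. Segments are to be compared between libraries, not between genes. Every anti–PD-1 bar is the taller of its pair, and the *Jun* segment of neutrophils takes 3.87% of it against 18.6% with PBS.

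To see how many cells carried a member UMI, every cell was randomly reduced to 1000 UMIs, and cells with fewer were left out. These were 104 of 848 PBS and 138 of 611 anti–PD-1 tumor and biliary cells, where median depth was 2777 and 1488 UMIs, and 61 of 390 and 39 of 193 CAFs, at 3693 and 2623 UMIs. In neutrophils, 51.6% (48.6 to 54.6) of PBS cells and 21.6% (20.04 to 23.2) of anti–PD-1 cells had a *Jun* UMI, while 74.0% (71.3 to 76.5) and 94.3% (93.4 to 95.1) had a *Junb* UMI. Without thinning, the *Jun* shares were 60.8% and 38.2%. The lower *Jun* level of neutrophils went with fewer cells in which it was counted and with fewer *Jun* UMIs in those cells, a mean of 2.62 in PBS and 1.46 with anti–PD-1. In NK cells *Fosl2* was counted in 2.73% (1.46 to 4.62) and 24.9% (21.7 to 28.4) of cells (7.93% and 55.1% unthinned), and in CD8-gated T cells in 2.67% (1.62 to 4.14) and 13.5% (11.4 to 15.7). B cells had the lowest shares of *Fosl2*, 0.853% (0.343 to 1.75) and 3.31% (2.38 to 4.46), at a depth of 1821 and 2697 UMIs per cell before thinning, against 2529 and 3462.5 in NK cells. *Fos* was counted in 10.3% (7.26 to 14.1) and 55.2% (47.0 to 63.2) of CAFs and in 41.8% (39.9 to 43.7) and 78.8% (76.6 to 80.8) of macrophages. For neutrophils the *Fos* share, 63.2% and 77.4%, ran against the CPM, so no order was read from it.

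**Figure D4:**
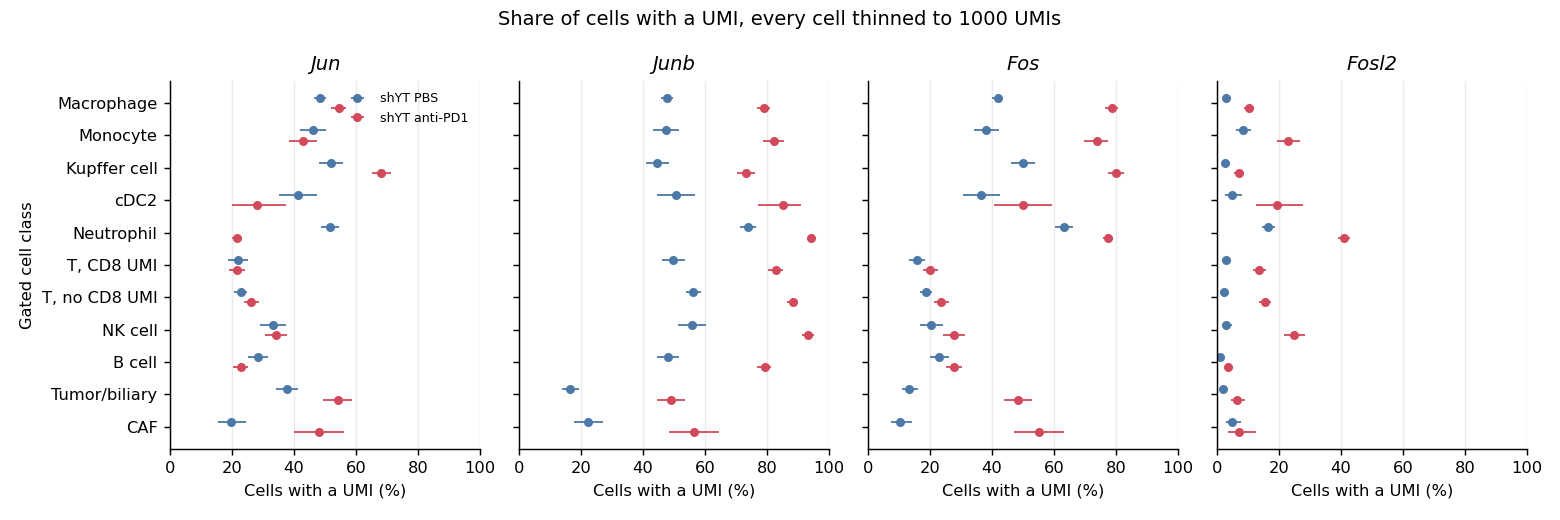
Share of cells (percent, horizontal axis) with at least 1 UMI of *Jun*, *Junb*, *Fos* or *Fosl2* in each gated class, every cell thinned to 1000 UMIs, blue for shYT PBS and red for shYT anti–PD-1. Bars are exact binomial 95% intervals, which cover counting error only. *Junb* shares are higher with anti–PD-1 in every row, and *Jun* shares of neutrophils are lower, 21.6% against 51.6%.

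Thinned cells of the anti–PD-1 library also carried more different members. The mean number of members with a UMI per macrophage was 2.00 in PBS and 3.61 with anti–PD-1, and the share of macrophages with none was 16.1% and 2.81%. In CAFs the means were 0.851 and 2.55, and 43.2% and 7.79% had none. In CD8-gated T cells the means were 1.35 and 2.14. Most CAFs of both libraries therefore had at least 1 member UMI in a sample of 1000. UMIs of possible dimer partners were also looked for in the same cell. *Fosl2* and *Junb* were both counted in 1.89% and 23.5% of NK cells and in 13.5% and 38.7% of neutrophils. *Fos* and *Jun* were both counted in 4.26% and 36.4% of CAFs, but in 35.8% and 16.7% of neutrophils, where *Fos* with *Junb* was found in 51.8% and 73.3%. Neutrophils with a *Fos* UMI thus held *Junb* more often and *Jun* less often in the anti–PD-1 library. The share of a pair depends on the shares of its single genes, which also differed between the libraries. Pairing beyond these single shares was not tested, so no change of partner was read, and protein was not measured.

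The macrophage class was not made of the same clusters in both libraries. Cluster 2 held 2123 of the PBS macrophages and 91 of the anti–PD-1 macrophages, while cluster 11 held 95 and 746. Cluster 5, which held most Kupffer cells, held 88 and 424 of the macrophage class (3.33% and 28.2%), and there *Fosl2* had a ratio of 0.81 and *Atf3* of 2.30. Within cluster 2, *Fos* was 882 and 1692 CPM (log2 ratio 0.94) and *Atf3* 222 and 744 CPM (1.72). Within cluster 11, *Fos* was 995 and 2393 CPM (1.26) and *Atf3* 280.3 and 1199 CPM (2.08). Both genes were thus also higher within clusters, although the *Fos* ratio in cluster 2 was under 1. Neutrophils differed in makeup too. Cluster 4 held 535 of 1214 PBS and 1548 of 2809 anti–PD-1 neutrophils, cluster 7 held 640 and 579, and other clusters held 39 and 682. *Jun* in neutrophils was 1180.1 and 232 CPM (−2.32) within cluster 4 and 1574 and 415 CPM (−1.91) within cluster 7. Of the tumor and biliary cells, cluster 3 held 370 of 848 with PBS and 510 of 611 with anti–PD-1, and there *Fos* was 113 and 688 CPM (2.56) and *Fosb* 15.1 and 132 CPM (2.77). Of the CAFs, cluster 15 held 327 of 390 and 107 of 193, with a *Fos* ratio of 2.56, and cluster 29 held 57 and 62, with a *Fos* ratio of 3.82. *Fosb* in cluster 29 rested on 3 PBS UMIs. Over 21 class-by-cluster pairs, *Fosb*, *Fosl2*, *Junb*, *Jund* and *Atf3* were higher with anti–PD-1 in all 21, *Fos* in 17 and *Jun* in 13. The pairs are parts of the same 2 libraries whose contrast selected the members, so they are not further observations. All genes were not counted within clusters. These clusters were formed from 2000 variable genes less any that were members or in the lists below, and the comparison within them was added after the first results were seen.

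RNA of other cells was counted in every class. The 7 neutrophil markers, summed, were 136 CPM in PBS and 656 CPM with anti–PD-1 in CD8-gated T cells, with 7 of 7 higher and none at 0, and 151 and 1084 CPM in CAFs, again 7 of 7. They ranged from 126 to 1027 CPM over the other 10 classes in PBS and from 636 to 1288 CPM with anti–PD-1. Scaling the members' levels in macrophages and neutrophils by such markers gave the amount that free RNA of these cells would bring. Free RNA of other classes was not counted in this estimate. For *Fos* in CD8-gated T cells it was 31.7 and 78.3 CPM of the 200.01 and 241 CPM measured, so the difference between the libraries was no larger than the difference in this estimate. The same held for *Fos* in B cells, with 56.0 and 104 CPM of the 309.7 and 345 CPM measured. For *Atf3* in CD8-gated T cells it was 60.4% of the anti–PD-1 level, in other T cells 46.6% and in B cells 45.2%. For *Fosl2* and *Junb* in CD8-gated T cells it was 5.54% and 3.87%, in B cells 21.7% and 6.18%, and for *Fosb* in CAFs 6.13%.

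The other genes of the pathway were described from lists of fixed membership, counting only genes with at least 50 UMIs in the class. The lists were chosen with earlier results of these data known. Their counts stand beside the share of all genes in that class, and nothing is read from one against the other. The 15 upstream kinases and factors, such as the MAP kinases and *Srf*, had none 2-fold higher in any of the 11 classes, and medians between −0.28 in neutrophils and 0.07 in tumor and biliary cells. 1 of them was 2-fold lower in neutrophils (all genes 4.65%), *Elk3*, at 40.3 and 11.7 CPM, a log2 ratio of −1.44 (−1.80 to −1.07). The median over all genes ran from −0.28 in neutrophils to 0.01 in CAFs. Of the 12 other bZIP genes, 4 were 2-fold higher in macrophages (all genes 3.01%) and 5 in cDC2 (3.03%), and 0 to 4 elsewhere (1.65% to 4.00%). The small MAF gene *Mafk* was 16.3 and 50.7 CPM, a log2 ratio of 1.39 (1.25 to 1.53) in macrophages, and *Batf2* was 13.8 and 43.8 CPM, a log2 ratio of 1.38 (1.23 to 1.52). *Maff* was 27.5 and 115 CPM, a log2 ratio of 1.89 (1.47 to 2.32) in NK cells. *Jdp2*, whose product dimerizes with Jun proteins and represses, was 122 and 362 CPM, a log2 ratio of 1.53 (1.35 to 1.71) in neutrophils. *Atf2* was the lowest of the list in macrophages, at −0.38.

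Of 19 other immediate early genes, those 2-fold higher numbered 15 of 17 in tumor and biliary cells (all genes 3.59%) and 13 of 17 in CAFs (3.59%). They numbered 13 of 19 in macrophages (3.01%), 5 of 18 in CD8-gated T cells (1.90%) and 4 of 19 in neutrophils (2.70%). The list medians were 1.57, 1.61, 1.19, 0.40 and 0.40. *Nr4a1*, an orphan nuclear receptor induced by antigen receptor and stress signals, was 135 and 1301 CPM, a log2 ratio of 3.22 (3.02 to 3.43) in NK cells. It was 35.9 and 374 CPM, a log2 ratio of 3.21 (2.89 to 3.54) in CAFs. *Egr1* was 139 and 1054 CPM, a log2 ratio of 2.88 (2.70 to 3.06) in CAFs. In neutrophils 1 gene of the list was 2-fold lower (all genes 4.65%), *Ier3*, at 986 and 428 CPM, a log2 ratio of −1.19 (−1.27 to −1.11).

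Of 19 textbook AP-1 targets, 9 of 18 were 2-fold higher in macrophages (all genes 3.01%) and 7 of 11 in tumor and biliary cells (3.59%). The counts were 5 of 13 in CD8-gated T cells (1.90%) and 5 of 15 in neutrophils (2.70%). The cytokine *Il6* was 0.957 and 78.6 CPM, a log2 ratio of 3.81 (3.68 to 3.93) in macrophages, and *Ptgs2*, which encodes an enzyme of prostaglandin synthesis, was 9.13 and 191 CPM, a log2 ratio of 3.79 (3.66 to 3.92). In T cells lacking a CD8 UMI the EGFR ligand *Areg* was 7.59 and 103 CPM, a log2 ratio of 3.11 (2.81 to 3.40). In CD8-gated T cells *Ifng* was 70.2 and 350.1 CPM, a log2 ratio of 2.24 (2.04 to 2.45). The cyclin gene *Ccnd1* went the other way in several classes, with 153 and 44.9 CPM, a log2 ratio of −1.66 (−1.88 to −1.45) in neutrophils and 138 and 41.4 CPM, a log2 ratio of −1.62 (−1.94 to −1.31) in NK cells. Regulation of these genes by AP-1 was not measured.

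Heat shock genes, which respond to warming and protein damage, had positive medians in all 11 classes. In macrophages 2 of 11 were 2-fold higher (all genes 3.01%), and in CAFs 2 of 11 (3.59%). The list medians were 0.85 and 0.44, against 0.23 in CD8-gated T cells. *Hspa1a* was 191 and 843 CPM, a log2 ratio of 2.12 (2.07 to 2.16) in macrophages and 86.0 and 391 CPM, a log2 ratio of 2.12 (1.88 to 2.37) in CAFs. The part of heat shock in the differences of the AP-1 members, and that of tissue handling, was not tested. Of the 10 housekeeping genes none was 2-fold higher or lower in the 11 classes.

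**Figure D5:**
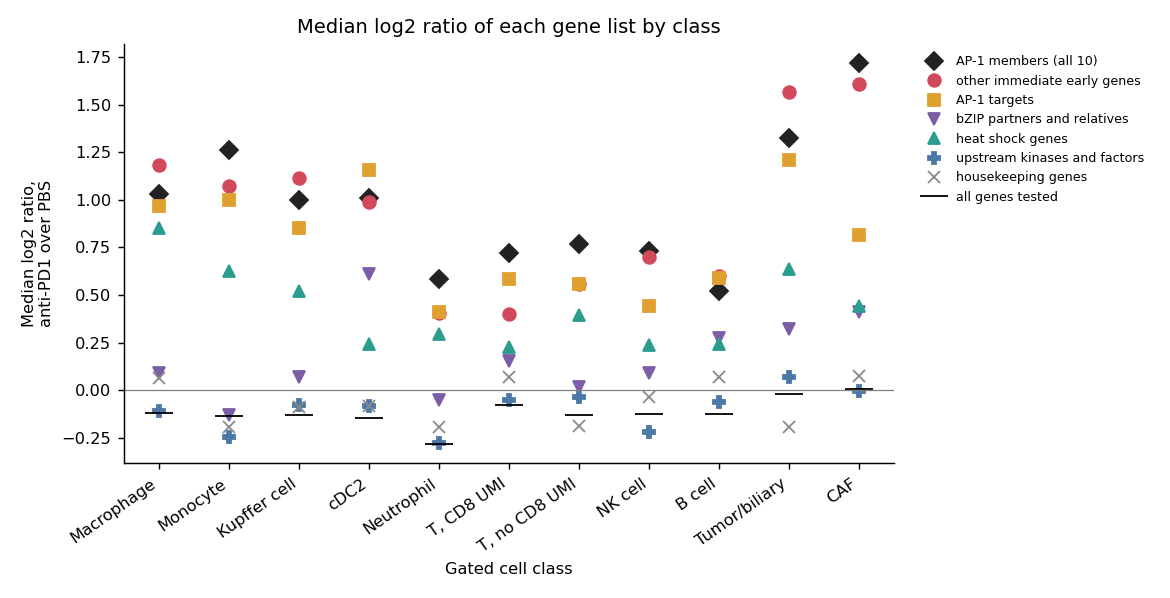
Median log2 ratio of CPM, anti–PD-1 over PBS (vertical axis), of the 10 AP-1 members and of each fixed gene list in the 11 gated classes (horizontal axis). Lists other than the members count genes with at least 50 UMIs. Upstream kinases and housekeeping genes lie near 0, and the other immediate early genes reach 1.61 in CAFs.

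Over the 22 class-by-library values, the genes whose log2 level ran most like a member differed between members. These values share libraries, depth and cell composition, so the correlations describe likeness within them. *Fos* was most like *Oasl2* (r = 0.92), *Zfp36* and *Rtp4*, *Atf3* most like *Cxcl10* (0.92), *Usp18* and *Cxcl9*, and *Fosb* most like *Tiparp* (0.86), *Zfp36* and *Usp18*. Of these, *Oasl2*, *Rtp4*, *Usp18*, *Cxcl9* and *Cxcl10* are known interferon-induced genes. *Fosl2* was most like *Nfil3* (0.95), *Isg15* and *Per1*, *Junb* most like *Nfkbid* (0.93), *Samsn1* and *Pim1*, *Jund* most like *Eif1* (0.88), *Gm8797* and *Vps37b*, and *Jun* most like *Slc31a2* (0.81), *Egr1* and *Rab32*. *Batf3* was most like *Ear2* (0.96), *Cds1* and *Hfe*, *Batf* most like *Gng2*, *Rassf5* and *Rac2*, and the rarely counted *Fosl1* most like *Tnfaip6*, *Pi16* and *Thbs1*. Between members, r was 0.87 for *Fosb* with *Atf3*, 0.83 for *Fos* with *Fosb*, and −0.01 for *Jun* with *Junb*.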

How the data were processed

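The deposited matrices hold unnormalized UMI counts for each gene and barcode, which the authors made with the Singleron software against mm10 from a GEXSCOPE V2 library of each group. How strand and ambiguous reads were counted is not given in the sources used here, so overlapping genes cannot be told apart. The submitters' processing notes name Seurat 4.3. Groups came from the sample labels. The members and all gene lists were chosen with earlier results of these data known.

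Cells were kept with 500 to 5000 genes detected and a mitochondrial share of UMIs up to 10%. A cell joined the best scored of 20 marker classes when at least 2 of its markers exceeded what the cell's depth and the library's mean share predict (Poisson tail under 0.05), the mean −log10 tail over the markers, each capped at 5, was at least 0.6, and no class of another lineage reached 0.5 of that score. These thresholds were set after class sizes had been seen. T cells were split by a *Cd8a* or *Cd8b1* UMI, which deeper cells show more often, and median depth was 3096 UMIs in PBS and 4685 with anti–PD-1 in the CD8-gated class. UMIs were summed per class and library (numpy 2.4.6, scipy 1.17.1, pandas 2.3.3), with exact Poisson or Clopper-Pearson 95% intervals. No p-value was computed, since there is 1 library per group and cells are not replicates. The pseudocount was 5 CPM, and shares of all genes used a minimum of 50 UMIs over both libraries. Where a count of 0 is given a limit, it is 3 counts of the class total. Named genes are all 10 members, from each list genes among the 2 highest and 2 lowest per class (1 gene is not reported here), and for likeness the 3 genes with the highest Pearson r over log2(CPM + 5) among 11010 genes with at least 20 CPM in one of the 22 sums. The automatic threshold on doublet scores (scanpy 1.11.5) marked 0 cells, so doublets were kept, and an alternative left out the top 5% of scores, 808 and 841 cells. The scripts were tested on simulated data. Alternatives changed the filters, scaling, pseudocount, gate, clustering (leidenalg 0.10.2), depth and sex of cells.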

Additional observations from a re-analysis of the deposited data

Results flagged for a closer look

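*Jun* differed between the 2 libraries in opposite directions in CAFs and neutrophils. Its log2 ratio was 2.12 in CAFs and −2.03 in neutrophils, and with 1 library per group this difference was not tested.

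Cells that no marker gate reached (3070 in PBS and 3692 with anti–PD-1), and cells that carried markers of several lineages (1089 and 1274), entered none of the values by gated class above, and several members were also 2-fold higher in them. In the cells without a class the log2 ratio was 2.46 for *Fosl2*, 1.84 for *Fosb*, 1.66 for *Atf3*, 1.57 for *Junb*, 1.22 for *Jund* and 1.06 for *Batf*. In the cells with markers of several lineages it was 2.27 for *Fosl2*, 2.25 for *Fosb*, 2.14 for *Atf3*, 1.49 for *Junb* and 1.28 for *Jund*, while *Batf*, at 0.71, was under 2-fold. Both are mixtures whose makeup was not compared between the libraries. The share of all genes 2-fold higher was not computed for these cells, so their values are not read against a background.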

How the results depend on the processing

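No paired analysis was possible because each group has 1 library, and leaving out a replicate was not possible for the same reason. Of the 54 member-by-class values that were 2-fold higher, 43 stayed so under each of 12 alternatives and 53 stayed above 0. The exception was *Fosl1* in CAFs, which turned to −0.69 when cells were thinned to 1000 UMIs. Of the 56 others, 18 passed 2-fold under at least 1 alternative. *Fosb*, *Fosl2*, *Junb* and *Atf3* were above 0 in all 11 classes under every alternative, and *Jund* in 10. Among cells with Y-linked and no *Xist* UMIs, *Jund* in monocytes was −0.07.

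Median-ratio scaling moved all ratios of a class by −0.06 (CAFs) to 0.36 (neutrophils). It gave 5 members 2-fold higher in neutrophils in place of 1, beside 4.72% of all genes. Cells with Y-linked and no *Xist* UMIs gave 2 in neutrophils (77 PBS and 1062 anti–PD-1 cells). They gave 2 in place of 4 in CD8-gated T cells (54 and 615 cells). The share of all genes was not computed for these cells, so nothing is read from the 2 counts. Without the minimum of 50 UMIs, the share of all genes 2-fold higher was 2.33% in tumor and biliary cells, 1.44% in NK cells, 0.938% in B cells, 1.31% in neutrophils, 0.914% in Kupffer cells, 1.75% in macrophages, 2.17% in monocytes, 1.05% in CD8-gated T cells and 0.953% in T cells lacking a CD8 UMI. Of 132 list medians recomputed, 105 differed little. Under median-ratio scaling, the housekeeping median was 0.12 in NK cells, 0.22 in B cells, 0.17 in neutrophils, 0.078 in Kupffer cells, 0.20 in macrophages, −0.053 in monocytes, 0.18 in CD8-gated T cells and −0.050 in T cells lacking a CD8 UMI. The heat shock median was then 0.40 in B cells, 0.66 in neutrophils, 0.68 in Kupffer cells, 1.00 in macrophages, 0.77 in monocytes and 0.53 in T cells lacking a CD8 UMI. The median of other immediate early genes was 0.77 in neutrophils, 1.23 in Kupffer cells, 1.33 in macrophages, 1.22 in monocytes and 0.69 in T cells lacking a CD8 UMI, that of bZIP genes 0.26 in neutrophils and 0.23 in macrophages, and that of upstream kinases 0.075 in neutrophils. With a pseudocount of 1 CPM, the median of AP-1 targets was 1.07 in Kupffer cells, 1.42 in macrophages and 1.37 in monocytes, and that of other immediate early genes 1.21 in Kupffer cells and 1.28 in macrophages.

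*Fosl1* had fewer than 50 UMIs in most classes (in monocytes, with 59, its lowest ratio was 1.03), and *Batf3* was rarely counted outside the phagocytes and dendritic cells. Treatment, animal, sex, shRNA line and preparation cannot be told apart in these 2 libraries.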
